A study of Mus musculus with 8 samples.

Results

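The genes described here are 10 that encode the machinery turning precursors of peptide hormones into active peptides, and the granins stored with them. They were picked by gene symbol, and all 10 were found among the 14126 genes of the deposited table and passed the filter on low values. They are Pcsk1, Pcsk2, Scg5, Pcsk1n, Cpe, Pam, Chgb, Scg2, Scg3 and Vgf. The samples were bulk RNA-seq libraries of hand-picked pancreatic islets from NOD/ShiLtJ mice, a strain prone to autoimmune diabetes, at 7 weeks of age. One group, labelled WT, had the genotype IRE1αfl/fl (4 libraries), and the other, labelled KO, had the genotype IRE1αβ-/- (4 libraries), described by the series as a knockout. WT and KO below mean the libraries so labelled. IRE1α, the product of Ern1, is a stress sensor of the endoplasmic reticulum. Tamoxifen was recorded for all 8 samples, to induce Cre recombinase, as a 10 mg/ml solution injected into the peritoneum 2 times every 24 hours on 5 consecutive days. The promoter that drives Cre was not stated, nor was whether the WT mice carried Cre. The comparison asks how the 2 genotypes differ in the transcripts of this machinery.

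Peptide hormones are made as longer precursors and are cut inside secretory granules as these mature. The endoproteases PC1/3 and PC2 cut after pairs of basic residues, carboxypeptidase E then trims those residues from the new ends, and PAM converts a terminal glycine into an amide on the peptides that need it. PC2 needs the chaperone 7B2, encoded by Scg5, to mature, and PC1/3 is inhibited by proSAAS, encoded by Pcsk1n. Granins are acidic proteins that condense with hormones in the acidic granule and are themselves cut into peptides. In islets PC1/3 is best known for converting proinsulin in beta cells, and PC2 for releasing glucagon in alpha cells.

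The libraries came with limits that touch these genes. Total normalized counts ran from 32024139 to 34858983 per library and are not sequencing depths, which are unknown. Total Ern1, the targeted gene, was higher in every KO library, at 7187.8 ± 194.6 against 4958.8 ± 488.0 in WT (SD, n = 4 each), and rose by 0.54 on the log2 scale (adjusted p = 0.00234, limma-trend). The deleted exons are not stated, and a sum over the whole gene does not check the genotype, so directions below rest on the labels. Libraries numbered 1 and 2 stood apart from those numbered 3 and 4 in both groups. Summed handling genes (Fos, Jun and 6 others) ran from 5130 to 17389 in the first set and from 118606 to 254192 in the second. Values are therefore also given within each set, although nothing in the labels records a batch. Islet endocrine markers were present in every library, and their balance differed between groups. Of 10 beta cell markers 8 were lower in KO and none higher, with summed levels of 5442666 to 6090750 in WT and 2578268 to 3545908 in KO. Of 8 alpha cell markers 6 were higher, with sums of 415804 to 1055243 and 1928172 to 2631264. All 4 delta cell markers were higher, with sums of 73412 to 126340 and 149632 to 256327. Hormone transcripts make up most of these beta, alpha and delta sums. In WT replicate 1, Ins1 and Ins2 had 1888108 and 3066238, Gcg 374922 and Sst 70309. Of 8 acinar markers 1 was lower and none higher, although their median log2 fold change was 1.48. Their sums of 17377 to 211081 in WT and 104385 to 311329 in KO overlapped. Of 5 stellate cell markers none passed, with a median of 1.32. Their sums of 8859 to 13629 in WT and 12954 to 24662 in KO overlapped. Ppy, the marker of PP cells, was higher, at 20159 to 47934 and 77733 to 92102. Of 6 ductal markers 2 were higher, with sums of 8380 to 11599 in WT and 15034 to 33286 in KO that did not overlap. None of the listed markers in the table was at 0 in all libraries, but the 3 T cell markers are not in the table and were not analysed here.

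Promoter sequences are shown because 3 of the genes share one element close to their start. RefSeq (GRCm38.p6) gave a window from 250 bases before to 50 after the start for 8 of the 10 genes, all but Cpe and Vgf. The cAMP response element TGACGTCA, which reads the same on both strands, was found in the windows of Pcsk1, Chgb and Scg2, with its first base 78, 72 and 68 bases before the start. The same letters occur in 1.79% of 32851 promoter windows. The stretches below run 5′ to 3′ along the gene with the element in capitals. They lie at chr13:75089768-75089797 (plus strand), chr2:132781559-132781588 (plus strand) and chr1:79440076-79440105 (minus strand). GENCODE M21 places outer starts of Chgb and Scg2 further upstream, so their stretches are exonic in that annotation, and that of Pcsk1 lies outside the gene.
Pcsk1: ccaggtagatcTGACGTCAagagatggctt
Chgb: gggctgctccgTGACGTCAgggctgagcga
Scg2: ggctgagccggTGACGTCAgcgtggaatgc

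The 100 bases before the outer of the RefSeq starts of Pam (chr1:98095647-98095746, minus strand) are shown for contrast, since Pam passed the test below and its windows held no such element.
Pam: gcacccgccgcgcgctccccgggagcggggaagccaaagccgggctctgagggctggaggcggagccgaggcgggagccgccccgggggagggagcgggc

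The shorter core TGACG, also part of the element above, occurred on either strand in 20.8% of windows, among them those of Pcsk2, Scg3 and Scg5, and was not found in those of Pcsk1n and Pam. TGACGTGG, a form of the element bound by XBP1, occurred in 0.676% of windows and the endoplasmic reticulum stress element (ERSE) in 0.119%, both strands searched. Neither was found in the windows of the 8 genes. ACGTG occurred in 19.6% of windows and was found in those of Pcsk1 and Scg5, where it overlaps a TGACG match. Together the overlapping matches read TGACGTG, which is TGACGTGG without its last letter. How often TGACGTG occurs over all windows was not counted. These matches describe letters in a window and show no binding.

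Per kilobase of annotated exon, the granin Scg2 had the highest level of the 10 genes in both groups. Its level per kilobase was 75090.6 ± 3718.0 in WT and 98447 ± 10110 in KO (SD, n = 4 each), ranking 14 of 14114 genes in each group. In WT the order after Scg2 was Scg5, Cpe, Scg3, Pcsk2, Chgb, Pcsk1, Pam, Pcsk1n and Vgf. The ranges of Scg5 and Cpe, of Cpe and Scg3, and of Pcsk2 and Chgb overlapped over the 4 WT libraries, and the other neighbours did not overlap. In KO, Chgb stood before Scg3 and Pam before Pcsk1, in both cases with ranges that did not overlap. Pam per kilobase went from rank 260 to rank 136, and Pcsk1 from rank 162 to rank 212. Lengths are the union of all annotated exons, which is long for Pam and Pcsk2 and lowers their levels relative to the others. The 10 genes summed to between 1.65% and 1.82% of a library in WT and between 2.01% and 2.34% in KO.

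**Figure D1:**
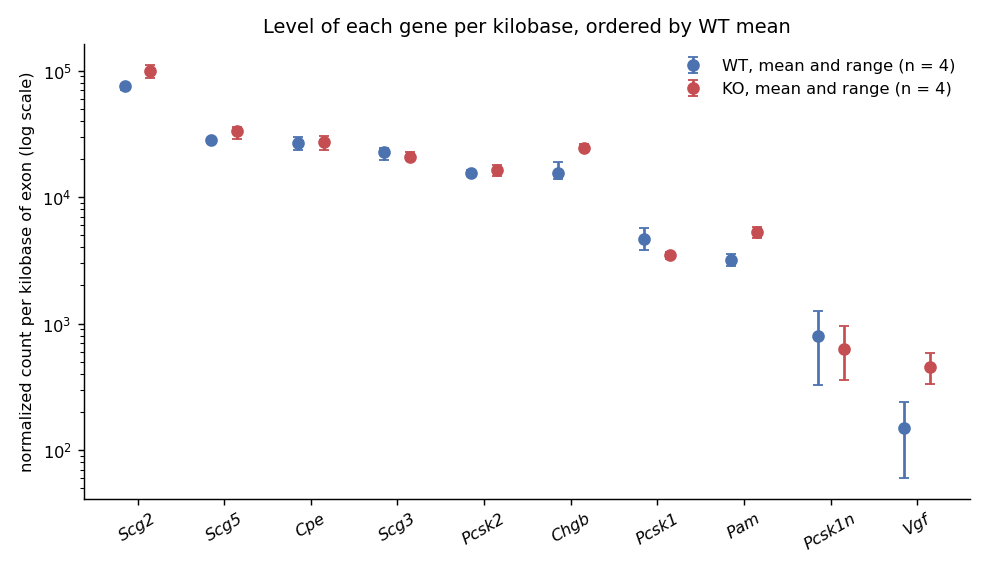
Normalized count per kilobase of annotated exon (vertical, log scale) for each of the 10 genes, ordered by WT mean, in WT and KO libraries. Points are means and bars the range over 4 libraries. Scg2 is highest in both groups, Vgf is lowest in WT and overlaps Pcsk1n in KO, and the KO ranges of Pam, Chgb, Scg2 and Vgf lie above those of WT.

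Of the 10 genes, 3 rose in KO (Pam, Chgb and Vgf), none fell and 7 did not pass (limma-trend, adjusted p under 0.05). Over all 14121 genes tested 11.1% rose (1562) and 9.81% fell (1385), and with totals that leave out hormone and mitochondrial genes 1745 rose and 1017 fell. At an unadjusted p under 0.05, 5 of the 10 were higher and 1 lower, against 35% of all genes in either direction. The authors' deposited table called 3 of the 10 higher and none lower, against 16.2% and 13.1% of its genes. The median log2 fold change was 0.15 over the 10 genes and -0.0008 over all genes. KO libraries lay above all WT libraries for 4 of the 10 (Pam, Chgb, Scg2 and Vgf), against 13.6% of all genes, and below for 1 (Pcsk1), against 12.3%. Either way the share was 25.9% of all genes. With the set of replicate numbers as a term, 4 of the 10 were higher (Pam, Chgb, Scg2 and Vgf) and 1 lower (Pcsk1), against 17% and 14.9% of all genes. In replicates 1 and 2 alone 4 were higher (Pam, Chgb, Vgf and Pcsk1n) and 1 lower (Pcsk1), against 12.2% and 10.8%. In replicates 3 and 4 alone 3 were higher (Pam, Chgb and Vgf) and 1 lower (Pcsk1n), against 11.4% in each direction. With the replicate number as a block 3 were higher and none lower, against 14.2% and 11.7%. In bulk islets, fewer cells of a type and less RNA per cell cannot be told apart, which holds for every gene below. The labels do not say beyond the 4 mice per genotype how libraries relate to animals, so the tests measure the spread between these libraries.

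**Figure D2:**
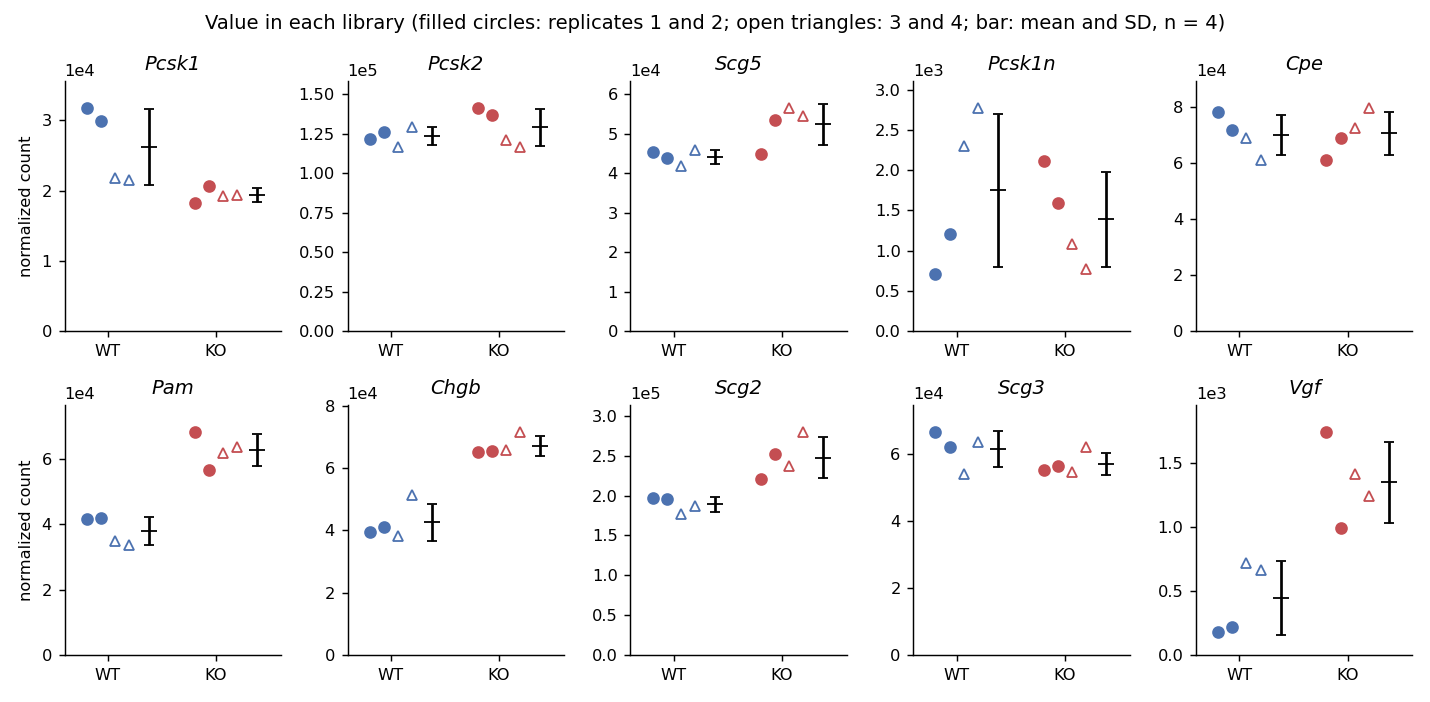
Normalized count (vertical, from 0) in each library for the 10 genes, WT and KO side by side. Filled circles are replicates 1 and 2, open triangles replicates 3 and 4, and bars the mean and SD of 4 libraries. Pam, Chgb, Scg2 and Vgf are separated upward and Pcsk1 downward, and Pcsk1n and Cpe run opposite ways in the 2 sets of replicate numbers.

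Among the endoproteases, Pcsk1 was lower in every KO library but did not pass, and Pcsk2 differed little. Pcsk1, encoding PC1/3 (ENSMUSG00000021587, GRCm38 chromosome 13, 75089826 to 75134861, plus strand), had values of 31763, 29874, 21737 and 21473 in WT replicates 1 to 4 and 18260, 20667, 19172 and 19347 in KO replicates 1 to 4. The 2 high values were WT replicates 1 and 2, and the KO libraries lay close together below all WT libraries. On the log2 scale KO minus WT was -0.42 ± 0.14 (moderated SE, adjusted p = 0.0662, limma-trend), with means of 26211.8 ± 5376.1 in WT and 19361.5 ± 992.3 in KO. With the set of replicate numbers as a term, a split chosen from these data, the difference passed (adjusted p = 0.0172). It was -0.67 in replicates 1 and 2 alone (adjusted p = 0.00949) and -0.17 in replicates 3 and 4 alone (adjusted p = 0.255), and it also passed without WT replicate 3 or WT replicate 4 (adjusted p = 0.0461 and 0.0322). The beta cell marker sums given above were also lower in KO, and their part in the result was not tested.

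Pcsk2, encoding PC2 (ENSMUSG00000027419, chromosome 2, 143546156 to 143816285, plus strand), had values of 121311, 125963, 116349 and 129434 in WT and 141266, 136560, 121158 and 116393 in KO. The groups overlapped, with KO replicates 1 and 2 above all WT libraries and KO replicates 3 and 4 not. Its log2 fold change was 0.06 ± 0.11 (adjusted p = 0.75), and -0.19 under quantile normalization, so no direction is given. Exons of Pcsk2 share 260 and 99 bases with the antisense genes Pcsk2os1 and Pcsk2os2, whose mean values in WT were 1020.5 and 341.5. Whether the counting used strand was not stated.

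Neither partner of the endoproteases passed over all 8 libraries. Scg5, encoding 7B2 (ENSMUSG00000023236, chromosome 2, 113776362 to 113829121, minus strand), had values of 45304, 43761, 41863 and 45840 in WT and 44957, 53610, 56595 and 54620 in KO. KO replicates 2 to 4 were above all WT libraries and KO replicate 1 was among them. The log2 fold change of 0.24 ± 0.10 did not pass (adjusted p = 0.115), nor did it under any of 20 alternatives (lowest adjusted p = 0.0544).

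Pcsk1n, encoding proSAAS (ENSMUSG00000039278, chromosome X, 7919822 to 7924410, plus strand), had no common direction. Its values were 716, 1211, 2304 and 2774 in WT and 2117, 1588, 1082 and 778 in KO. In replicates 1 and 2 both KO libraries were above both WT libraries, a log2 difference of 0.98 ± 0.26 (adjusted p = 0.0377). In replicates 3 and 4 both were below, at -1.46 ± 0.17 (adjusted p = 0.00199). Over all 8 libraries it was -0.24 ± 0.45 (adjusted p = 0.749), and 0.042 without WT replicate 4. The difference between the sets was -2.44 ± 0.36 (interaction term, adjusted p = 0.0589), which did not pass. Eras, a gene on the other strand that shares 135 exon bases with it, is not among the genes analysed here.

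Of the 10 genes none had an interaction term that passed (limma-trend), against 0.0991% of all genes. At an unadjusted p under 0.05 there were 4, namely Pcsk1, Pcsk1n, Cpe and Vgf, against 18.8% of all genes. The handling genes named above differed between the sets as well, and their part in these results was not tested.

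Of the enzymes that finish the ends of peptides, Pam rose and Cpe did not pass. Pam, encoding peptidylglycine alpha-amidating monooxygenase (ENSMUSG00000026335, chromosome 1, 97795114 to 98095646, minus strand), had values of 41617, 41917, 34819 and 33718 in WT and 68495, 56733, 61855 and 63827 in KO. All KO libraries were above all WT libraries. Its mean rose from 38017.8 ± 4354.3 to 62727.5 ± 4870.6, 1.65 times the WT mean, a log2 difference of 0.73 ± 0.11 (adjusted p = 0.00241). It was called under all 20 alternatives, with adjusted p from 7.23e-04 to 0.0326, and rose by 0.58 in replicates 1 and 2 and by 0.87 in replicates 3 and 4. Pam shares 188 exon bases with B230216N24Rik, a transcript on the same strand with a mean of 40.8 in WT and 114.8 in KO.

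Cpe, encoding carboxypeptidase E (ENSMUSG00000037852, chromosome 8, 64592542 to 64693054, minus strand), had values of 78279, 71857, 68951 and 61215 in WT and 61285, 69018, 72570 and 79824 in KO. The groups covered the same range, a log2 difference of 0.01 ± 0.12 (adjusted p = 0.961). It was -0.21 in replicates 1 and 2 and 0.23 in replicates 3 and 4, and neither passed (adjusted p = 0.307 and 0.269). Within both sets, however, KO and WT libraries did not overlap and lay opposite ways, as for Pcsk1n, so 2 of the 10 genes showed this pattern, against 7.58% of all genes.

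Among the granins, Chgb rose, Scg2 was higher in every KO library without passing, and Scg3 was not called. Chgb, encoding secretogranin 1 (ENSMUSG00000027350, chromosome 2, 132781278 to 132795079, plus strand), had values of 39585, 41056, 38206 and 51512 in WT and 65133, 65500, 65938 and 71807 in KO. Replicate 4 was the highest library in each group, and the groups did not overlap. The mean rose from 42589.8 ± 6060.9 to 67094.5 ± 3158.9, 1.58 times the WT mean, a log2 difference of 0.66 ± 0.11 (adjusted p = 0.00407). The rise was 0.70 in replicates 1 and 2 and 0.63 in replicates 3 and 4, and it was called under all 20 alternatives (adjusted p from 0.00132 to 0.0332).

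Scg2, encoding secretogranin 2, the precursor of secretoneurin (ENSMUSG00000050711, chromosome 1, 79434669 to 79440120, minus strand), had values of 196933, 195321, 176611 and 186546 in WT and 220417, 252355, 237272 and 280333 in KO. No KO library overlapped WT, with means of 188853 ± 9351 and 247594 ± 25427. The log2 fold change of 0.39 ± 0.13 did not pass (adjusted p = 0.0646), and passed with the set term (adjusted p = 0.0445) and without the mean-variance trend (0.0264). Over 20 alternatives the adjusted p ran from 0.0264 to 0.406, the highest being that of the authors' deposited table.

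Scg3, encoding secretogranin 3, which anchors other granins to the granule membrane (ENSMUSG00000032181, chromosome 9, 75643189 to 75684056, minus strand), had values of 66791, 62019, 54177 and 63651 in WT and 55177, 56396, 54770 and 62110 in KO. The groups overlapped, and the log2 fold change was -0.11 ± 0.10 (adjusted p = 0.489). Chga, a further granin outside the 10 genes, had means of 229474 ± 34242 in WT and 170893 ± 9771 in KO (log2 difference of -0.42 ± 0.14, adjusted p = 0.0655), with all KO libraries below all WT libraries.

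Vgf, encoding a granin-like precursor that is induced by nerve growth factor and by neuronal activity (ENSMUSG00000037428, chromosome 5, 137026392 to 137033351, plus strand), had the lowest level of the 10 genes in every WT library and the largest log2 fold change of the 10. In KO its level per kilobase overlapped that of Pcsk1n. Its values were 179, 216, 717 and 669 in WT and 1750, 995, 1415 and 1243 in KO. WT replicates 3 and 4 were above WT replicates 1 and 2, and all KO libraries were above all WT libraries. The mean rose from 445.3 ± 287.1 to 1350.8 ± 317.1, a log2 difference of 1.84 ± 0.46 (adjusted p = 0.0213). The log2 fold change was 2.74 ± 0.26 in replicates 1 and 2 and 0.94 ± 0.11 in replicates 3 and 4 (adjusted p = 0.00255 and 0.00226), a difference of -1.80 ± 0.32 that did not pass (interaction term, adjusted p = 0.0759). The call ended without WT replicate 2, KO replicate 1 or KO replicate 3 (adjusted p = 0.0554, 0.0606 and 0.0524). Its FDR in the authors' deposited table was 2.82e-08.

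**Figure D3:**
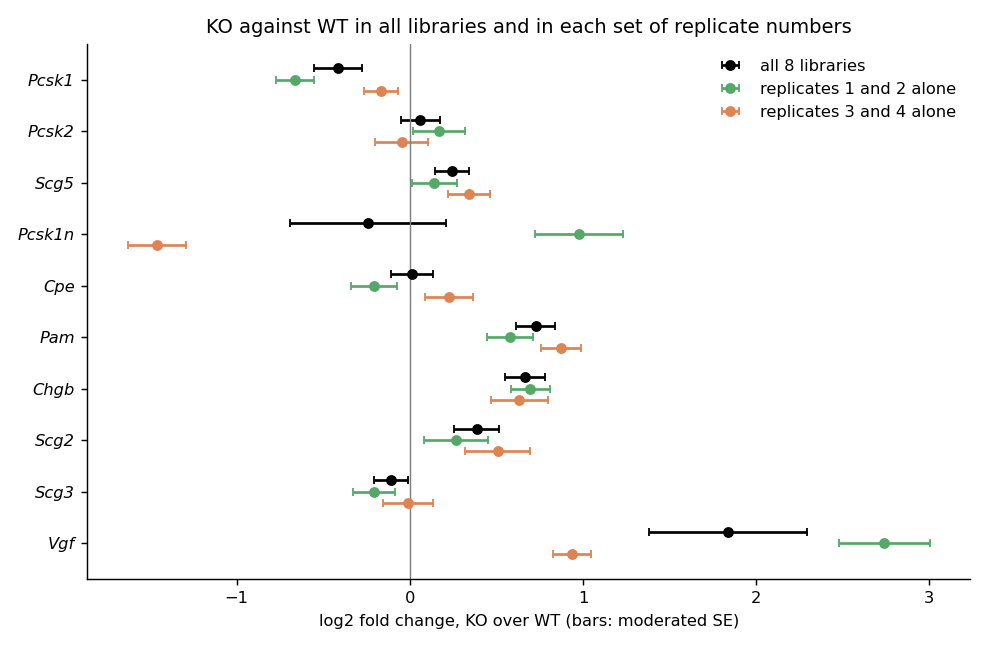
Log2 fold change of KO over WT (horizontal) for the 10 genes over all 8 libraries, in replicates 1 and 2 alone and in replicates 3 and 4 alone. Bars are limma's moderated SE. Pam and Chgb are above 0 in all 3 fits, Vgf goes from 2.74 to 0.94 between the sets, and Pcsk1n from 0.98 to -1.46.

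Ratios within a library do not depend on how the library was scaled. Each of 7 ratios was compared by a two-sided exact permutation test over 4 against 4 libraries, whose smallest p is 0.0286, and adjusted over the 7. The ratio of Pcsk1 to Pcsk2 transcripts averaged 0.209 in WT and 0.151 in KO (geometric means), a log2 difference of -0.48 (exact p = 0.0571, adjusted p = 0.08). It was -0.83 in replicates 1 and 2 and -0.12 in replicates 3 and 4. That of Pcsk2 to Scg5 differed by -0.18 (exact p = 0.286, adjusted p = 0.333) and that of Pcsk1 to Pcsk1n by -0.17 (exact p = 0.83, adjusted p = 0.83).

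Cpe and Pam act in sequence at the end of a peptide, and their ratio was lower in every KO library. The log2 ratio of Cpe to Pam was 0.91, 0.78, 0.99 and 0.86 in WT and -0.16, 0.28, 0.23 and 0.32 in KO. The difference of -0.71 reached the smallest p of the exact test (0.0286), and adjusted over the 7 ratios it was 0.05, at the threshold and not under it. With the other ratios as they were, the adjustment could give no lower value.

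Ratios to the main hormone transcripts were higher in every KO library for insulin and lower for glucagon, and none passed after adjustment. Each was at the smallest exact p, and the adjustment over 7 ratios took that to 0.05. With the other ratios as they were, even complete separation could not give a value under the threshold. Ins1 and Ins2, summed because their reads are hard to divide, were the beta cell substrate. The log2 ratio of Pcsk1 to insulin was -7.29, -7.48, -7.78 and -7.86 in WT and -6.85, -7.19, -6.93 and -6.88 in KO, higher in every KO library, with a difference of 0.64 (exact p = 0.0286, adjusted p = 0.05). Pcsk1 itself was lower in every KO library and its ratio to insulin higher. The ratio of Chgb to insulin was higher by 1.72 on the log2 scale (exact p = 0.0286, adjusted p = 0.05), with 1.73 in replicates 1 and 2 and 1.72 in replicates 3 and 4. For glucagon, encoded by Gcg, the log2 ratio of Pcsk2 was -1.63, -2.10, -2.72 and -2.95 in WT and -4.17, -3.76, -4.08 and -4.12 in KO. That difference of -1.68 (exact p = 0.0286, adjusted p = 0.05) stood beside a log2 fold change of 1.74 for Gcg itself and 0.06 for Pcsk2.

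**Figure D4:**
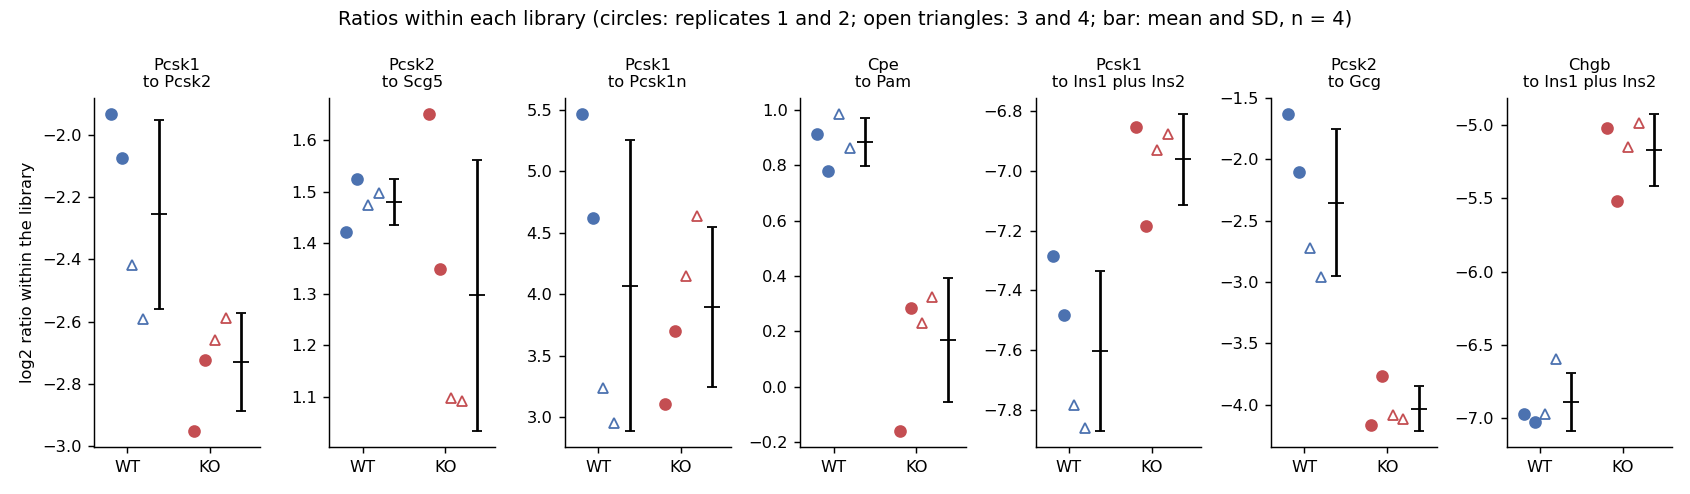
Log2 ratio of transcripts within each library (vertical) for 7 pairs, WT and KO side by side. Filled circles are replicates 1 and 2, open triangles replicates 3 and 4, and bars the mean and SD of 4 libraries. The ratios of Cpe to Pam and of Pcsk2 to Gcg are lower in every KO library, and those of Pcsk1 and Chgb to insulin higher.

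Other genes of the pathway were read from lists. Over all genes 11.1% rose and 9.81% fell, with a median log2 fold change of -0.0008, and each list's counts stand beside these shares. Of 19 other convertases and processing enzymes measured, 2 rose and 3 fell, near the shares over all genes, with a median of -0.06. Pcsk4, a convertase gene best known from the testis, fell by 1.15 (adjusted p = 0.0174) and Cpm, encoding a membrane carboxypeptidase, by 0.94 on the log2 scale, while Pcsk5 rose by 0.92 from a low WT mean of 30.8. Furin, the ubiquitous convertase of the Golgi (-0.09, adjusted p = 0.694), and Cpd, encoding a Golgi carboxypeptidase related to carboxypeptidase E (0.29, adjusted p = 0.0602), did not pass. Cpd passed with the replicate block (adjusted p = 0.0291).

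Of 21 prohormone and propeptide genes measured, 6 rose and 4 fell (11.1% and 9.81% over all genes), with a median of 0.66. Those that fell were Ucn3, encoding urocortin 3 (log2 difference of -2.10 ± 0.18, adjusted p = 1.51e-04), Npy, encoding neuropeptide Y (-1.86), and both insulin genes (-1.20 for Ins1 and -0.98 for Ins2). The Ins2 call ended with the replicate block (adjusted p = 0.104, limma-trend), and its FDR in the authors' deposited table was 0.118. All KO libraries were nevertheless below all WT libraries for Ins2, at 1438411 to 1945077 against 3044173 to 3357417. Those that rose were, first, Gcg, Sst, Ppy and Pyy, encoding glucagon, somatostatin, pancreatic polypeptide and peptide YY, with 1.74, 1.18, 1.47 and 1.49. Cck and Adm also rose, from WT values of at most 2 and 19, so their fold changes rest on low values. Iapp, encoding amylin, whose precursor is also cut by PC1/3 and PC2 and amidated by PAM, was below WT in every KO library without passing (-0.28 ± 0.16, adjusted p = 0.242).

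Of 33 genes of granule formation, membrane and release 9 fell and 4 rose, against 9.81% and 11.1% over all genes, with a median of -0.14. The count that rose was near the share over all genes. Sytl4, encoding granuphilin, which docks insulin granules, fell from 24296 ± 4728 to 9184.3 ± 1503.5 (log2 difference of -1.40 ± 0.17, adjusted p = 7.85e-04). Slc30a8, the zinc transporter gene of insulin granules, fell by 0.91, and Rab37, a small GTPase gene, by 0.83. Slc18a2, encoding the vesicular monoamine transporter VMAT2, rose by 0.85. Ptprn and Ptprn2, encoding transmembrane proteins of the granule, did not pass (0.15 and -0.10, adjusted p = 0.392 and 0.395). Several genes of these lists are themselves beta or alpha cell markers, and the part of the marker sums given above in these counts was not tested.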

How the data were processed

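The single deposited table gave, for each gene, 8 per-library columns and the authors' comparison. Per the submitters' processing notes, the authors used STAR 2.5.3a, RSEM 1.2.31, edgeR 3.16.15, bcl2fastq 2.20 and the build GRCm38.p5, with settings that were not stated. The per-library values are a score: counts normalized and rounded by the authors, judged from column names and from median-of-ratios factors of 0.994 to 1.01. They are not raw counts, so the count test planned for raw counts, and its alternative, were not run and the planned test for normalized values was used. The deposited table also holds the authors' log2 fold change and log2 CPM, their p-value and their FDR.

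Values were tested with limma-trend (limma 3.58.1, R 4.3.3) on log2(value + 1), over the 14121 genes whose value reached 1 in 4 or more libraries. P-values were adjusted over them by Benjamini-Hochberg, with a threshold of 0.05. The pseudocount makes fold changes of low genes too small. Exact permutation tests used scipy 1.17.1. The model was also run on simulated data with independent libraries and no difference between the sets of replicate numbers. That run does not cover the difference between the sets seen in these libraries. The 10 genes, the gene lists and the 2 sets of replicate numbers were chosen with earlier results of these data known. Beside the 10, the genes named are fixed hormones and Chga, the 4 called genes of each list that changed most (where none was called, the 2 most abundant), and the 3 genes most alike in pattern to Pcsk1 and Pcsk2. Some genes that the rule would name are not reported here. Furin, Cpd, Ptprn, Ptprn2 and Rest fall outside this rule and were chosen once their values had been seen.

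Deviations of same-numbered WT and KO libraries from their group means correlated across 13081 genes with r of 0.327, 0.583, 0.664 and 0.381. Genes are not independent replicates. Differently numbered libraries of the same set correlated about as strongly (0.433 and 0.454 in replicates 1 and 2, 0.516 and 0.466 in replicates 3 and 4), so these values follow the sets as well as the numbers. All same-numbered pairs were above 0.1, but so were the differently numbered pairs of the same set. The values therefore do not show that the numbers pair the libraries. A fit with the replicate number as a block was made as an alternative. Alternatives were another pseudocount, filter, normalization, the block, the set term, each set alone, each library left out, no trend and the authors' test. Exon lengths and positions are from GENCODE M21.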

Additional observations from a re-analysis of the deposited data

Results flagged for a closer look

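Pcsk1n differed between the sets of replicate numbers, because both KO libraries were above both WT libraries in replicates 1 and 2 and below both in replicates 3 and 4. The difference of its log2 fold changes was -2.44 (adjusted p = 0.0589 for the interaction term, limma-trend). Cpe showed the reverse order, lower in KO in replicates 1 and 2 and higher in replicates 3 and 4, with a difference of 0.43 (adjusted p = 0.244). The log2 ratio of Pcsk1 to Pcsk1n likewise went from -1.64 in replicates 1 and 2 to 1.30 in replicates 3 and 4, a difference of 2.94 that was not tested.

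A sample far from the others was found in 2 of 34 groups of 4 libraries examined, where chance gives about 1 in 20. For Chgb, KO replicate 4 (71807) lay above the other KO libraries (65133 to 65938), a gap of 0.879 of the group's range. For the log2 ratio of Chgb to insulin, WT replicate 4 (-6.60) lay above the other WT libraries (-7.02 to -6.97), a gap of 0.868 of the range.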

How the results depend on the processing

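Pam and Chgb kept their call and direction under all 20 alternatives, Vgf under 17, and Pcsk2, Scg5, Cpe and Scg3 passed under none. The replicate block changed no call among the 10 genes, with counts of 3 higher and none lower, and it ended the Ins2 call. With the set of replicate numbers as a term, 2400 genes were higher and 2102 lower over the whole table, and 1 of the 10 (Pcsk1) was lower. In replicates 1 and 2 alone 1 was lower (Pcsk1), and in replicates 3 and 4 alone 1 (Pcsk1n). Leaving out 1 library gave 1121 to 1684 genes higher and 863 to 1597 lower, and 0 to 1 of the 10 lower. Pcsk2 reversed to -0.19 under quantile normalization and to -0.047 in replicates 3 and 4 alone, Cpe to -0.031 under quantile normalization and to -0.21 in replicates 1 and 2 alone, and Pcsk1n to 0.98 in replicates 1 and 2 alone. Without 1 library, Cpe ran from -0.052 to 0.078 and Pcsk1n from -0.61 to 0.042. The cause was not tested.

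Interaction calls over all genes went from 1 higher to 2 with a pseudocount of 0.1 and to 0 with 10, and from 13 lower to 8 under quantile normalization. Higher calls in the list of other convertases were 5 with the set term and 5 in the authors' deposited table, and among prohormones 10 in that table. Among regulators, 0 were higher and 5 lower with the replicate block, and 3 higher and 6 lower with the set term. The authors' deposited table called 4 of them higher. Shares over all genes were 14.2% higher and 11.7% lower with the replicate block, and 17% and 14.9% with the set term. In the authors' test they were 16.2% and 13.1%. All these shares were above the 11.1% and 9.81% of the main fit, so larger counts were not confined to these lists. In replicates 1 and 2 against replicates 3 and 4, the log2 difference of ratios was -0.83 against -0.12 for Pcsk1 to Pcsk2, 0.027 against -0.39 for Pcsk2 to Scg5, -1.64 against 1.30 for Pcsk1 to Pcsk1n, and 0.36 against 0.92 for Pcsk1 to insulin. For ratios, neither leaving out a library (smallest exact p = 0.0571) nor the sign-flip test of the replicate block (smallest exact p = 0.125) can reach the threshold. A filter on a mean value of at least 10 removed no gene. Depth is unknown, so precision rests on 4 libraries per group.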

Other observations

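Among 22 transcriptional and RNA-level regulators of the endocrine secretory programme, 1 rose and 3 fell in KO (limma-trend). Over all genes 11.1% rose and 9.81% fell. The median log2 fold change of the regulators was -0.09. Mlxipl, encoding the glucose-responsive factor ChREBP, fell by 0.76, Nkx6-1, a beta cell factor gene, by 0.48 and Myt1 by 0.22 on the log2 scale. Myt1 was near the threshold (adjusted p = 0.0413, limma-trend), and its FDR in the authors' deposited table was 0.0599. With the replicate block none rose and 5 fell, against 14.2% and 11.7% of all genes. Rest, encoding a repressor of neuronal and endocrine genes, was above WT in every KO library at a low level (117.5 ± 9.9 in WT and 214.8 ± 101.9 in KO), with KO replicate 1 at 366, and did not pass (adjusted p = 0.0736).

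The genes whose log2 values followed Pcsk1 most closely over the 8 libraries were Atp8b1, encoding a phospholipid flippase (Pearson r = 0.994), and Ganab and Uggt1, encoding glucosidase II and the glucosyltransferase of glycoprotein folding in the endoplasmic reticulum (r = 0.994 and 0.992), among 11834 genes with a mean value of at least 100. Uggt1 fell in KO, and the other two did not pass. Those closest to Pcsk2 were Atn1, Dag1 and Cand2 (r = 0.970, 0.964 and 0.958), none of which passed. These genes were picked as the highest of many, so r describes likeness only.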
